A study of Mus musculus with 9 samples.

Results

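AGO-bound RNA of 9 nuclear receptor genes was examined in mouse liver with and without the microRNA miR-122. The genes were Rxra, Ppara, Nr1h4, Nr0b2, Nr1i2, Nr1i3, Hnf4a, Nr1h3 and Nr5a2. They were taken by name from the deposited table of bound regions, and every unique region carrying one of these names was kept: 167 regions of 92645 in the series, in 9 of 13770 named genes. The readout was AGO CLIP-seq, in which ultraviolet light crosslinks RNA to Argonaute (AGO), the protein that carries microRNAs, and the RNA recovered with AGO is sequenced. The libraries came from livers of 4 miR-122 knockout mice (KO, 1 female and 3 males) and 5 floxed littermate controls (labelled WT, 3 females and 2 males), all 6 weeks old. Every library stands for its own mouse, per the labels. The WT mice thus carried the floxed allele too, and neither the driver nor the cell type of the deletion is named in the labels. The comparison asked which AGO-bound sites of these genes depended on miR-122.

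Nuclear receptors are transcription factors that bind lipids, bile acids or foreign compounds, or act without a known regulating ligand, and switch target genes on or off. In liver, RXRA pairs with PPARalpha (Ppara, fatty acid oxidation), FXR (Nr1h4, bile acids), LXRalpha (Nr1h3, cholesterol), PXR (Nr1i2) and CAR (Nr1i3, both foreign compounds), while HNF4alpha and LRH-1 (Nr5a2) keep up hepatocyte genes and SHP (Nr0b2) represses other receptors. miR-122 is the dominant microRNA of hepatocytes, and a microRNA guides AGO to transcripts through its seed, the bases near its 5′ end that pair with the target.

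Libraries held 612479 to 1070610 reads over all regions in KO and 445912 to 1170130 in WT. Levels are given as CPM, in which a library's counts over all regions add up to the same total as in any other library. Of all reads, 12823 of 7923177 lay in the 9 genes. Hepatocyte markers were present in every library, with a summed level of 9968 to 15737 CPM in KO and 20613 to 27550 CPM in WT, and 8 of the 10 genes on that list were lower in KO and 2 higher. Markers of neurons, a cell type the labels do not name, summed to 2204 to 9071 CPM in KO and 43 to 57.3 CPM in WT. Of the 15 neuron markers, 13 were tested and 13 were higher in KO, and Gria2, Mapt, Rbfox1, Stmn2 and Syn1 had no read in WT. KO replicate 4 held the highest neuron level (9071 CPM) and the lowest hepatocyte level (9968 CPM). The glia list summed to 642 to 1695 CPM in KO and 268 to 462 CPM in WT, and the stellate cell list to 906 to 1721 CPM in KO and 569 to 729 CPM in WT. The part of these markers in the results below was not tested.

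Besides miR-122, seed matches of several other microRNA families lay in the receptor regions that passed the test between KO and WT. Their mature sequences are printed as the guides that those regions could pair with, from RefSeq on GRCm38.p6, 5′ to 3′, with the seed (bases 2 to 8) in capitals. 8 were matched by name. They fall into 5 seeds: miR-15a and miR-16 share AGCAGCA, miR-19a and miR-19b share GUGCAAA, miR-30a and miR-30c share GUAAACA, and miR-21a and miR-22 each have their own.
mmu-miR-15a-5p: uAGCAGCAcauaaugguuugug
mmu-miR-16-5p: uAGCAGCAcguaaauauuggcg
mmu-miR-19a-3p: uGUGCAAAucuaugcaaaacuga
mmu-miR-19b-3p: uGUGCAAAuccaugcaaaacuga
mmu-miR-21a-5p: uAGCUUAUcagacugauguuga
mmu-miR-22-3p: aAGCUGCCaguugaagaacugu
mmu-miR-30a-5p: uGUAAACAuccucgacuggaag
mmu-miR-30c-5p: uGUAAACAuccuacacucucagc

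Bound regions were spread unevenly over the receptors. Rxra held 58 regions, Ppara 33, Hnf4a 23, Nr1h4 17, Nr5a2 15, Nr1i2 8, Nr1i3 7, and Nr0b2 and Nr1h3 3 each. By the deposited annotation 75 lay in introns, 40 in 3′ UTRs, 34 in coding sequence and 11 in 5′ UTRs, and the rest in repeats or downstream of a gene. All 167 lay within the bounds of the named gene in the reference table, including 2 that the deposited annotation calls downstream. A miR-122 match was deposited for 19 regions: 5 each in Rxra and Ppara, 3 in Nr1h4, 2 each in Nr1i2 and Hnf4a, and 1 each in Nr0b2 and Nr5a2. Of these, 13 were intronic, and 3 carried only a match of a class marked -B (1 each in Rxra, Hnf4a and Nr0b2), which the labels and headers do not define. Nr1i3 and Nr1h3 had no miR-122 match, and 19 regions had no seed match of any deposited family. Some Nr1i3 reads are uncertain, because the reference places Tomm40l over the end of that gene.

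Per kilobase of bound sequence, Rxra and Hnf4a had the highest WT levels, with 202 ± 28 and 195 ± 33.2 CPM per kb (SD, n = 5). Ppara followed at 173 ± 21.7 CPM per kb, and these 3 did not differ beyond their spread. Nr5a2 (102 ± 16.9), Nr0b2 (92.9 ± 34.8), Nr1h4 (64.7 ± 12.4) and Nr1i2 (58.1 ± 20.4 CPM per kb) formed the middle, and each overlapped its neighbour in SD. Nr1i3 (38.3 ± 18.2) and Nr1h3 (38 ± 21.8 CPM per kb) were lowest. In KO the order began with Ppara at 155 ± 41.4, then Rxra at 124 ± 32.5 and Hnf4a at 113 ± 29.5 CPM per kb (SD, n = 4), which again overlapped.

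When all regions of a gene were summed, Rxra, Hnf4a and Nr1h4 had fewer AGO-bound reads in KO livers than in WT livers, and no receptor had more. That is 3 of 8 receptors tested, against 45.2% of all 8843 genes called in either direction, 23.3% lower and 21.9% higher, by edgeR's quasi-likelihood test with Benjamini-Hochberg adjustment over all genes. The share of receptors called was thus near the background. With scaling from regions without a miR-122 match, the whole table held 2511 lower and 1315 higher genes, against 2056 lower and 1940 higher as scaled here, and the median log2 fold change of all genes was -0.17, against 0.07. Under that scaling 4 receptors were lower, Nr0b2 being the addition. Without KO replicate 4 the same 3 and Nr0b2 were lower. In bulk tissue, fewer cells of a type and less RNA per cell cannot be told apart. Nr1h3, with 52 reads in all, was too low to test.

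**Figure D1:**
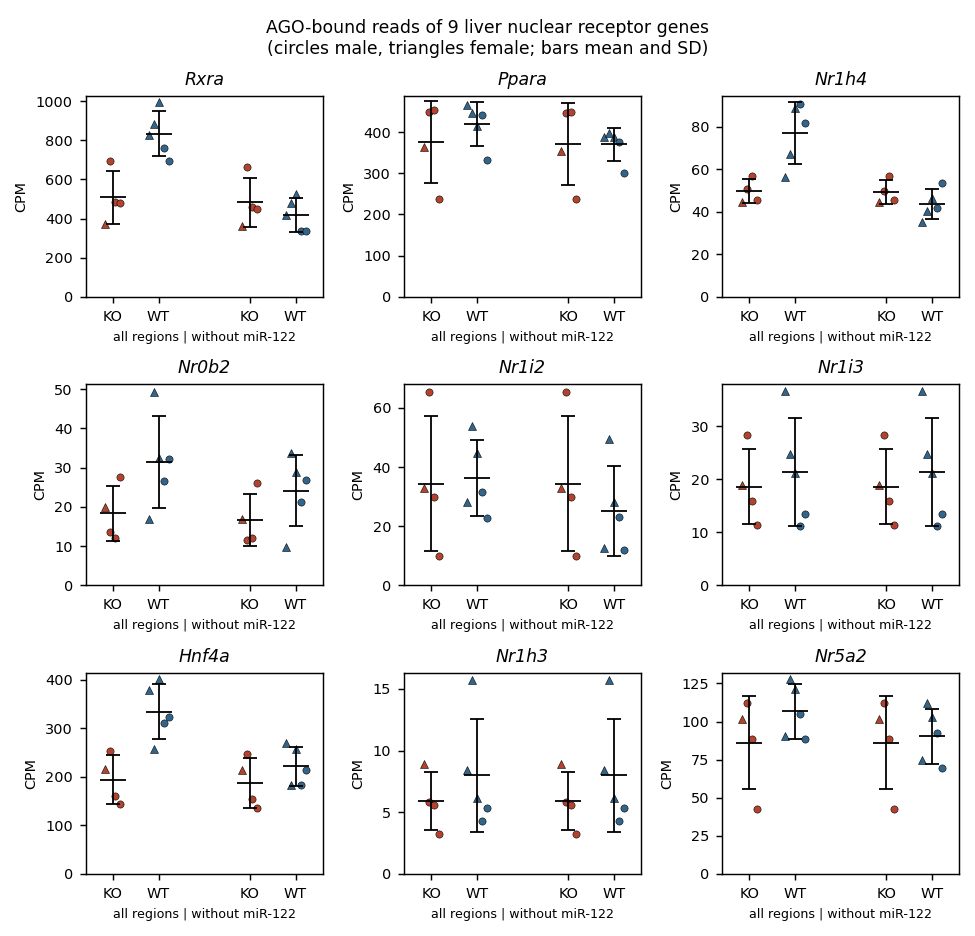
AGO-bound level (CPM, vertical axis) of each of the 9 receptor genes per library, KO left of WT, for all regions (left pair) and without regions that hold a miR-122 match (right pair). Circles are male and triangles female mice, and the bars give the mean and SD (KO n = 4, WT n = 5). Rxra and Hnf4a lie lower in every KO library than in any WT library over all regions, and overlap once the miR-122 regions are left out.

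Rxra, which encodes the RXR partner of PPARalpha, FXR, LXRalpha, PXR and CAR, had the most reads. Its summed level was 375, 694, 487 and 478 CPM in KO livers, against 829, 881, 995, 761 and 694 CPM in WT livers. Every KO library lay below every WT library, although the highest KO library (KO replicate 2) was within 1 CPM of the lowest WT library (WT replicate 5), where 18.3% of the genes tested had all KO libraries below all WT libraries and 20.3% had them above. The log2 fold change was -0.80 (SE 0.23, adjusted p = 0.0135). Without KO replicate 1, the only KO female, it was -0.47 (adjusted p = 0.118), and in males alone -0.52 (adjusted p = 0.148), so the call rested on that library.

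Most of that difference lay in 1 place. The Rxra 3′ UTR region chr2:27760178-27760247 (mm10, + strand), with a 7mer-A1 match to miR-122, held 5, 6, 7 and 0 reads in KO libraries, against 264, 166, 489, 436 and 240 reads in WT libraries. These are 4.3 ± 3 CPM in KO (SD, n = 4) and 374 ± 38.2 CPM in WT (SD, n = 5), a log2 fold change of -6.30 (SE 0.38, adjusted p = 1.14e-08). In WT livers it was the region with the most reads of all 167. The coding region chr2:27737467-27737536, also with a 7mer-A1 match, fell less: it held 8, 13, 7 and 9 reads in KO, against 24, 13, 39, 49 and 26 reads in WT (log2 -1.93, SE 0.36, adjusted p = 0.000292). In CPM its groups did not overlap. The mean phyloP conservation score of its match was 1.46, the highest of the 19 regions' matches that had a score, while that of the 3′ UTR match was -0.39. Only 1 of the 19 regions, this region, lay in coding sequence, so its score could not be set against other coding matches.

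Parts of the coding sequence of Rxra were lower in KO also outside the miR-122 match. Of the 6 coding regions without such a match 4 were tested, and 3 were lower. The other tested one, chr2:27759527-27759596, had 12.9 ± 1.7 CPM in KO and 10 ± 4.2 CPM in WT (log2 0.44, adjusted p = 0.448). For comparison, 20.1% of all tested coding regions lacking that match were called lower in KO, and 9.68% higher. The region chr2:27737379-27737448, with matches to miR-130a/301 and miR-22, had 21.1 ± 7 CPM in KO and 68.8 ± 10.2 CPM in WT (log2 -1.76, SE 0.32, adjusted p = 0.000222). Only 18 bases lie between it and the coding region with the miR-122 match. Downstream, chr2:27752319-27752388 had 2.5 ± 2.4 CPM in KO and 17.7 ± 4.4 CPM in WT (log2 -2.53, adjusted p = 0.000806), and chr2:27741041-27741110 had 3.6 ± 3.6 CPM in KO and 15 ± 5.3 CPM in WT (log2 -1.90, adjusted p = 0.0193, and 0.201 without KO replicate 1). All 3 lower regions carry a miR-22 match, among other matches. Over the 9 genes 10 regions with a miR-22 match were tested, with a median log2 fold change of 0.34. These 3 were the lower ones and 1 was higher. All 10 lack a miR-122 match. Over the whole table, the test called 13.2% of regions lacking that match lower in KO, and 21.3% higher. The part of miR-22 was not tested. In the 3′ UTR of Rxra itself, chr2:27761803-27761872 with a miR-22 match had 24.1 ± 1.6 CPM in KO and 14.8 ± 2.5 CPM in WT, with every KO library above every WT library (log2 0.62, adjusted p = 0.129). Next to it, chr2:27761902-27761971, also with one, had 28.3 ± 9.8 CPM in KO and 19.4 ± 3 CPM in WT (log2 0.58, adjusted p = 0.140). Summed over the coding regions without a miR-122 match, Rxra had a log2 fold change of -1.35 (SE 0.21, adjusted p = 6.97e-05), and over all its coding regions in the full table of -1.16 (adjusted p = 0.000132). The coding-only sum was added after the values were seen.

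The 3′ UTR of Rxra outside its miR-122 region did not follow. Those 5 regions summed to 220, 269, 186 and 160 CPM in KO libraries, against 180, 200, 229, 161 and 141 CPM in WT libraries, and the groups overlapped (log2 -0.33, SE 0.20, adjusted p = 0.244). That fold comes from a table of 3′ UTR regions scaled on its own, and its sign differs from that of the CPM means. The largest, chr2:27760804-27760873 with matches to miR-130a/301, the miR-148 family and miR-19, had 143 ± 49.9 CPM in KO and 132 ± 36.8 CPM in WT (log2 0.25, adjusted p = 0.516). In KO livers it was the region with the most reads of the gene.

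Intron reads of Rxra ran the other way. The 38 intron regions without a miR-122 match summed to 72.5, 311, 209 and 219 CPM in KO, against 91.6, 121, 121, 47 and 52.4 CPM in WT. Of the 38, 36 had a higher KO mean, and they are among the 48 of 62 such regions over the 9 genes. In the whole table, 34.3% of the tested intron regions without a match were called higher in KO and 7.33% lower. Those percentages count calls of tested regions, not higher means. In the other receptors such regions had a higher KO mean in 4 of 10 in Ppara, 5 of 9 in Nr1h4, 3 of 4 in Hnf4a and 0 of 1 in Nr1i3. Their sums overlapped between the groups, with 40.3 ± 13.3 CPM in KO and 41.2 ± 14.6 CPM in WT for Ppara. For Nr1h4 they were 22.7 ± 6.1 CPM in KO and 21.6 ± 5.7 CPM in WT. In the Rxra intron sum the 3 male KO libraries lay above every WT library, while the female KO library lay within the WT range. Neuron markers summed to 2204 CPM in that female library and to 2459, 2848 and 9071 CPM in the males, and their part in the intron reads was not tested. In the table without miR-122 regions their log2 fold change was 0.65 (SE 0.55, adjusted p = 0.400). In the full table the sum of all 41 intron regions had 1.18 (SE 0.50, adjusted p = 0.0436). Those 38 regions held 750 of the 791 KO reads and 351 of the 373 WT reads in Rxra introns, and the ratio of mean CPM, KO over WT, was 2.34 for them and 2.35 for all 41. The tables were also scaled separately. These class sums overlap the gene sums in reads, and the intron sum was added after the values were seen. Only 1 of the 38 regions had reads enough to be tested alone, chr2:27704198-27704267, with 23.5 ± 14.2 CPM in KO and 9.2 ± 13.9 CPM in WT (adjusted p = 0.0814). The 3 intron regions with a miR-122 match were low: chr2:27680046-27680115 (-B class) had 6.3 ± 3.6 CPM in KO and 1.3 ± 1.3 CPM in WT, chr2:27700545-27700614 had 4.1 ± 2.4 CPM in KO and 0.27 ± 0.60 CPM in WT, and chr2:27745919-27745988 had 1.05 ± 1.5 CPM in KO and 2.9 ± 3.3 CPM in WT. The first pair of these were the only miR-122 regions of the 19 with a higher mean in KO.

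**Figure D2:**
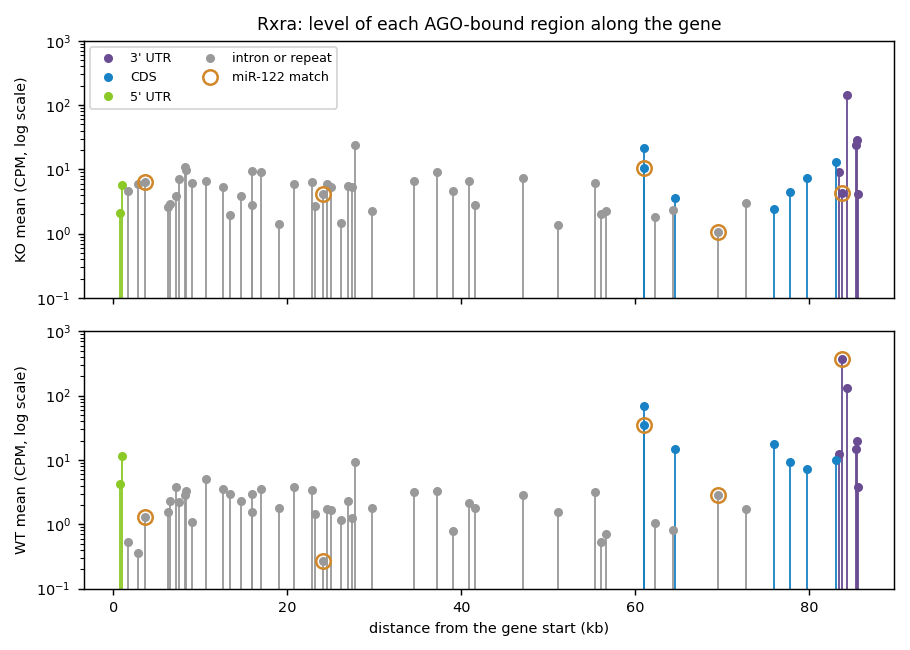
Mean level of each of the 58 Rxra regions (CPM, log scale) against distance from the gene start in kb, KO in the upper panel and WT in the lower, coloured by annotation, with orange rings around regions that hold a miR-122 match. The ringed 3′ UTR region stands at 374 CPM in WT and 4.3 CPM in KO, and most intron regions stand higher in KO.

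**Figure D3:**
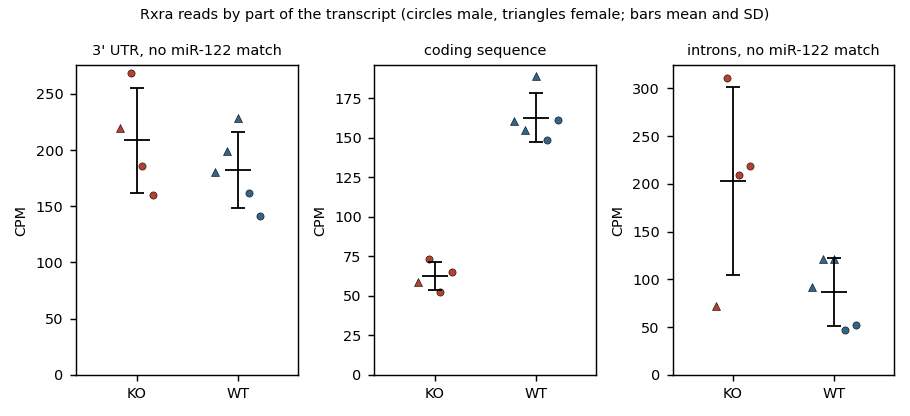
Rxra levels (CPM) per library in 3′ UTR regions without a miR-122 match, in coding regions and in intron regions without a miR-122 match, KO left of WT. Circles are male and triangles female mice, and bars give the mean and SD (KO n = 4, WT n = 5). Coding levels are lower in every KO library, and intron levels are higher in the 3 male KO libraries only.

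Without its miR-122 regions, Rxra had 482 ± 127 CPM in KO and 419 ± 85.4 CPM in WT, with a log2 fold change of -0.07 (SE 0.25, adjusted p = 0.856). The CPM means and the fold differ in sign because CPM divides by all reads of the library, whereas the fold uses TMM scaling of the table without miR-122 regions. With miR-122 regions left out, none of the receptors was called (0 of 8 tested), where 31.5% of all 8160 genes were, 13.2% lower and 18.3% higher. At an unadjusted p under 0.05 edgeR gave 1, Hnf4a, and DESeq2 gave 0 after adjustment.

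Ppara, the fatty acid sensor, had 364, 449, 453 and 238 CPM in KO livers, against 465, 446, 414, 443 and 332 CPM in WT livers. The groups overlapped, with KO replicate 4 the lowest library (log2 -0.23, SE 0.17, adjusted p = 0.303), and the value without miR-122 regions was -0.30 (adjusted p = 0.217). Its 5 miR-122 regions were all intronic and together held 19 reads in KO and 208 reads in WT. The one with an 8mer match, chr15:85737335-85737404, had 1, 2, 1 and 0 reads in KO, against 19, 6, 13, 40 and 12 reads in WT (log2 -4.33, SE 0.60, adjusted p = 1.72e-05). Of the 4 not tested, chr15:85760263-85760332 (7mer-m8) had 1 KO read in all, with 12.9 ± 6.2 CPM in WT. chr15:85740558-85740627 had 3.2 ± 3.6 CPM in KO and 9.1 ± 6.6 CPM in WT, chr15:85772812-85772881 had 0.25 ± 0.50 CPM in KO and 4 ± 3.8 CPM in WT, and chr15:85775059-85775128 had no KO read and 3.6 ± 3.3 CPM in WT.

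Along the Ppara 3′ UTR, regions moved in opposite directions. The region with a miR-21 match, chr15:85801799-85801868, the largest of the gene by the mean of both groups, held 69, 78, 105 and 23 reads in KO, against 27, 8, 41, 65 and 24 reads in WT, or 70.1 ± 25 CPM in KO and 36 ± 13.5 CPM in WT. It was higher in KO (log2 0.76, SE 0.30, adjusted p = 0.0467), the groups overlapped, and it did not pass 0.05 under 10 of 17 other settings, removal of any 1 WT library among them. A region with a miR-19 match, chr15:85802535-85802604, held 4, 4, 2 and 1 reads in KO, against 17, 4, 32, 25 and 22 reads in WT, and fell by 3.01 on the log2 scale (SE 0.49, adjusted p = 8.05e-05). In CPM its groups did not overlap. The other 6 of the 8 regions of this 3′ UTR, among them 2 more with miR-19 matches, did not pass the test.

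Nr1h4, which encodes the bile acid receptor FXR, had 44.7, 50.7, 57 and 45.7 CPM in KO livers, against 56.4, 67.3, 88.8, 90.6 and 81.9 CPM in WT livers. Only KO replicate 3 and WT replicate 1 overlapped, by under 1 CPM (log2 -0.82, SE 0.20, adjusted p = 0.00491). Without the 3 miR-122 regions, all intronic, the values were 49.3 ± 5.6 CPM in KO and 43.6 ± 7 CPM in WT (log2 -0.23, adjusted p = 0.449). The 8mer region chr10:89514919-89514988 (− strand) had no KO read, against 7, 8, 28, 35 and 17 reads in WT. WT was at least 26.1-fold higher, set against a floor of 3 counts over the KO group (0.807 CPM), with an adjusted p of 7.57e-06. The 7mer-m8 region chr10:89527285-89527354 likewise had no KO read, against 7, 4, 17, 17 and 3 reads in WT (at least 13-fold, not tested), and the 6mer region chr10:89495373-89495442 had 1 KO read and 1.9 ± 1.6 CPM in WT. The largest region outside these, the coding region chr10:89480547-89480616, had 17.4 ± 4 CPM in KO and 15.4 ± 4.4 CPM in WT (adjusted p = 0.772).

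Nr0b2 encodes SHP, the repressor that FXR induces. It had 19.9, 13.6, 12.1 and 27.8 CPM in KO livers, against 16.9, 49.3, 32.5, 26.5 and 32.2 CPM in WT livers, and the groups overlapped (log2 -0.81, SE 0.42, adjusted p = 0.139). With scaling from regions without a miR-122 match it passed (log2 -1.06, adjusted p = 0.0364), as it did without KO replicate 4 (log2 -1.13, adjusted p = 0.0131). Its largest region, in the 5′ UTR at chr4:133553391-133553527, had 9.6 ± 8 CPM in KO and 16.6 ± 7 CPM in WT (log2 -1.03, adjusted p = 0.167). The -B class match lay in its 3′ UTR at chr4:133556355-133556424, with 3, 2, 0 and 1 reads in KO and 5, 7, 4, 6 and 4 reads in WT. That region was not tested.

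Nr5a2, which encodes LRH-1, an activator of bile acid synthesis genes, had 86.2 ± 30.7 CPM in KO and 107 ± 17.8 CPM in WT (log2 -0.32, SE 0.22, adjusted p = 0.248). KO replicate 4 was the lowest library at 42.5 CPM, and the other 3 KO libraries, at 88.7 to 112 CPM, lay within the WT range of 88.6 to 128 CPM. A 5′ UTR region with 2 miR-122 6mer matches, chr1:136952112-136952181 (− strand), had no KO read, against 11, 7, 21, 15 and 14 reads in WT, at least 20.1-fold (adjusted p = 2.15e-05). A 3′ UTR region with a miR-30 match, chr1:136844046-136844115, held 41, 39, 23 and 7 reads in KO, against 9, 12, 21, 13 and 0 reads in WT, and was higher in KO (27.9 ± 13.9 CPM in KO, 13.8 ± 9.9 CPM in WT, log2 1.45, SE 0.51, adjusted p = 0.0272). The groups overlapped, and it did not pass under 8 of 17 other settings, among them removal of WT replicate 1, 3, 4 or 5 (adjusted p = 0.0687, 0.0582, 0.0504 and 0.0597 in that order, by edgeR). Of the 7 regions of this 3′ UTR 6 had a higher KO mean, but only 1 was tested, that with the miR-30 match. Over the 9 genes, 22 of 37 regions in 3′ UTRs without a miR-122 match had a higher KO mean. The remaining Nr5a2 region, chr1:136845043-136845112, had 0.72 ± 0.93 CPM in KO and 7.8 ± 3.4 CPM in WT, without overlap. The 7 coding regions, none with a miR-122 match, summed to 38.2 ± 12.9 CPM in KO and 59.6 ± 9.1 CPM in WT. The coding sum did not pass in the full table (log2 -0.40, adjusted p = 0.150) and was lower in the table without miR-122 regions (log2 -0.70, adjusted p = 0.0247), so the call depended on the table.

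Nr1h3, which encodes the oxysterol receptor LXRalpha, had 5.9 ± 2.3 CPM in KO and 8 ± 4.6 CPM in WT, from 23 KO reads and 29 WT reads over 3 coding regions. Its largest region, chr2:91190542-91190611 with a match to the miR-17 family, had 3.3 ± 2.1 CPM in KO and 4 ± 4.3 CPM in WT. A difference was not detectable at this depth.

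The foreign compound receptors PXR and CAR showed no difference in their sums. Nr1i2 had 32.8, 65.3, 29.9 and 9.8 CPM in KO, against 28.2, 53.8, 44.9, 31.6 and 22.8 CPM in WT (log2 -0.02, SE 0.43, adjusted p = 0.981), and Nr1i3 had 18.6 ± 7.1 CPM in KO and 21.4 ± 10.2 CPM in WT (log2 0.04, SE 0.39, adjusted p = 0.938). The sign of both changed with the setting. Within Nr1i2, the intron region chr16:38270203-38270272, with an 8mer, a 7mer-A1 and a 6mer match to miR-122, had no KO read, against 5, 2, 12, 6 and 6 reads in WT, at least 8.7-fold. A second region, chr16:38288184-38288253 with a 6mer match, also had no KO read and had 4.1 ± 3.3 CPM in WT. Neither was tested. The largest Nr1i2 region, in the 5′ UTR at chr16:38294679-38294812, had 11.1 ± 9.6 CPM in KO and 8.2 ± 6.2 CPM in WT, and that of Nr1i3, in the 3′ UTR at chr1:171218573-171218711 under Tomm40l, had 4.2 ± 2.1 CPM in KO and 4.8 ± 2.2 CPM in WT.

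Hnf4a, a master regulator of hepatocyte genes, had 217, 253, 161 and 144 CPM in KO livers, against 379, 258, 401, 311 and 322 CPM in WT livers. Every KO library was below every WT library (log2 -0.83, SE 0.19, adjusted p = 0.00391). Its 3′ UTR region chr2:163572063-163572132, with a 7mer-A1 match to miR-122, held 3, 4, 7 and 5 reads in KO, against 78, 29, 160, 148 and 75 reads in WT, or 5.4 ± 2.4 CPM in KO and 109 ± 28.8 CPM in WT (log2 -4.52, SE 0.39, adjusted p = 1.38e-07). Without its 2 miR-122 regions the gene had 187 ± 51.6 CPM in KO and 221 ± 40.3 CPM in WT (log2 -0.49, SE 0.20, adjusted p = 0.0782). That value passed 0.05 without the sex term (adjusted p = 0.0347), without KO replicate 2 (0.0215), without KO replicate 4 (0.0469) and without WT replicate 2 (0.0397), by edgeR. The second miR-122 region, an intron region at chr2:163560306-163560375 with a -B match, had 0.73 ± 1.5 CPM in KO and 4.5 ± 3.9 CPM in WT.

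Other Hnf4a regions moved both ways. In the 3′ UTR, chr2:163570451-163570520, with matches to miR-125 and miR-29, had 7.4 ± 3.7 CPM in KO and 20.2 ± 3 CPM in WT (log2 -1.62, SE 0.41, adjusted p = 0.00374). Nearby, chr2:163570655-163570724, with a match to the miR-148 family, had 15 ± 6.1 CPM in KO and 27.7 ± 4.4 CPM in WT (log2 -0.99, adjusted p = 0.0453), a call that was lost under 13 of 17 other settings, removal of any 1 WT library among them. The 11 regions of the 3′ UTR without a miR-122 match summed to 110 ± 36.8 CPM in KO and 140 ± 30.7 CPM in WT, and the groups overlapped. Their log2 fold change was -0.89 (SE 0.24, adjusted p = 0.0156), in a table of 3′ UTR regions scaled on its own. The size of that fold thus depends on the scaling. In coding sequence, chr2:163558999-163559068, with matches to the miR-15/16 family and miR-22, held 30, 34, 23 and 8 reads in KO, against 5, 3, 18, 12 and 5 reads in WT, and was higher in KO (24.4 ± 9 CPM in KO, 9.3 ± 3.9 CPM in WT, log2 1.34, SE 0.38, adjusted p = 0.00872). Without KO replicate 1 its adjusted p was 0.0514, by edgeR.

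As a share of each gene's own reads, which does not depend on scaling between libraries, miR-122 regions fell in 6 of the 7 receptors that have one, where they fell in 66.9% and rose in 0.958% of all 4385 genes that could be tested this way. They held 5.2 ± 1.1% of Rxra reads in KO and 50 ± 4% in WT, and 0.48 ± 0.96% of Nr1h4 reads in KO and 42.6 ± 7.9% in WT (SD, n = 4 and 5). For Hnf4a the share was 3.5 ± 1.8% in KO and 33.7 ± 5.2% in WT, and for Ppara 1.2 ± 1.1% in KO and 11.7 ± 4.1% in WT. Nr1i2 had 0 of 138 reads in KO, which allows a share of up to 2.17%, and 34.9 ± 18.2% in WT. Nr5a2 had 0 of 338 reads in KO, which allows up to 0.888%, and 15.6 ± 3.8% in WT. By a two-sided exact permutation test over all 126 ways of dividing the libraries into 4 and 5, whose smallest p is 0.00794, the p adjusted over those 4385 genes was 0.0174 for Rxra, Nr1h4, Hnf4a and Nr5a2 and 0.0262 for Ppara and Nr1i2. The genes were those with regions of both kinds and a read in every library. The miR-122 regions of Nr1i2 and Nr5a2, with no KO read, could be listed only through their WT reads. Those of Nr1h4, with 1 KO read, were listed almost only through them. The miR-122 regions of Ppara held 19 KO reads and 208 WT reads, those of Hnf4a 22 and 506, and those of Rxra 96 and 1768. Most reads that could list them were thus also from WT. A lower KO share was largely fixed in advance for Nr1i2, Nr5a2 and Nr1h4, and favoured for Ppara, Hnf4a and Rxra. The p of this test, also within sex, adds no support for these 6 genes. Nr0b2, with 8.8 ± 7.2% in KO and 24.1 ± 12.5% in WT, did not pass (adjusted p = 0.102, exact permutation). Within sex, over 40 arrangements with a smallest p of 0.025, the 6 had an adjusted p of 0.0379 each and Nr0b2 of 0.0967 by the same exact test, where the share fell in 65.1% and rose in 0.821% of all such genes.

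**Figure D4:**
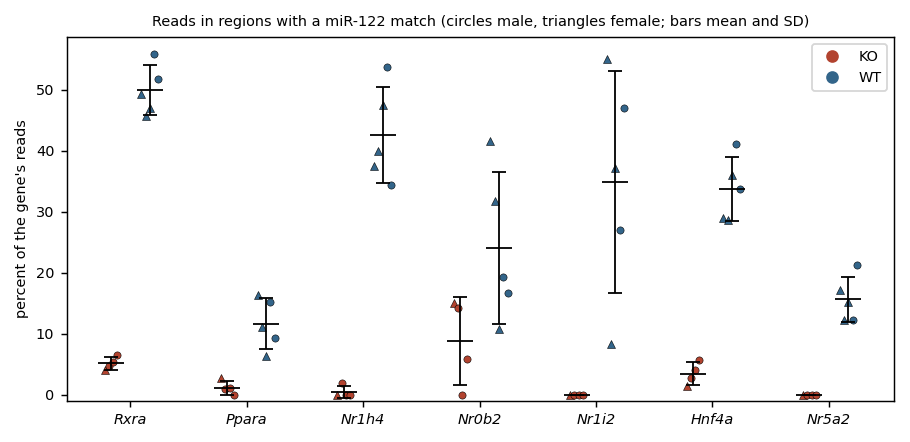
Percent of each receptor's reads that lay in regions with a miR-122 match (vertical axis), per library, KO left of WT for each of the 7 receptors with such a region. Circles are male and triangles female mice, and bars give the mean and SD (KO n = 4, WT n = 5). KO shares lie between 0 and 15%, and the groups overlap in Nr0b2 only.

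Taken region by region, 43 of the 167 had reads enough in either group to be tested. Of these 12 were lower and 3 higher in KO, where 45.1% of all 17182 regions tested were called, 27.6% lower and 17.5% higher. All 6 tested regions with a miR-122 match were lower, as were 89.0% of such regions in the whole table, of which 1.5% were higher. They passed the filter through their WT reads, so their direction was largely fixed by it. Of the 37 without a match 6 were lower and 3 higher, against 13.2% lower and 21.3% higher of such regions in the whole table. With upper quartile scaling the whole table held 4331 lower and 4219 higher regions, and with scaling from regions without a miR-122 match 5350 lower and 2012 higher, against 4745 lower and 3007 higher as scaled here. The receptors' higher regions numbered 7 with upper quartile scaling and 1 with the other. By annotation, regions without a match were called as follows. In 3′ UTRs 3 of 20 were lower and 2 higher, against 7.63% lower and 31.1% higher in the whole table. In coding sequence 3 of 14 were lower and 1 higher, against 20.1% lower and 9.68% higher. In introns 2 were tested and neither was called, against 7.33% lower and 34.3% higher.

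Set against the other regions of the same gene, 42 were tested, and 6 were lower and 12 higher in KO, where 31.8% of 12856 regions were called, 15.9% lower and 15.9% higher. Of the 6 lower ones 5 had a miR-122 match. The other was the Ppara 3′ UTR region with the miR-19 match (log2 -2.02 relative to its gene, adjusted p = 7.47e-06). In a gene that lost a large miR-122 region, the remaining regions gain share by construction, and 9 of the 12 higher ones were in Rxra (5) and Hnf4a (4). The coding miR-122 region of Rxra was not called relative to its gene (log2 -0.42, adjusted p = 0.340). The regions it was set against included the 3′ UTR miR-122 region of Rxra, itself lower by log2 -6.30.

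**Figure D5:**
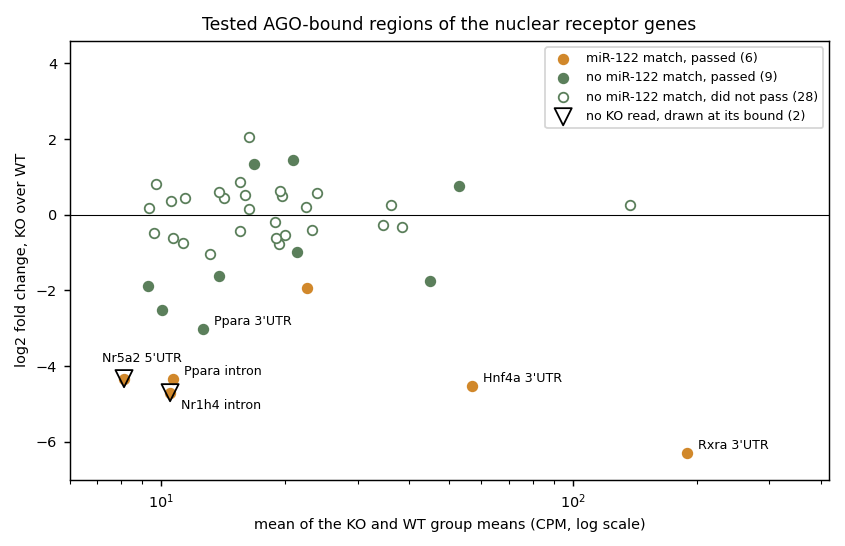
Log2 fold change, KO over WT, of the 43 tested receptor regions against their level (mean of the KO and WT means, CPM, log scale). Orange regions hold a miR-122 match and green ones do not, filled points passed an adjusted p of 0.05, and triangles mark 2 regions with no KO read, drawn at their bound. 5 of the 6 orange points lie below every green one, with the Rxra 3′ UTR at -6.30.

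The wider receptor network was described from lists of genes. Their counts stand against 23.3% lower and 21.9% higher of all genes over all regions, with a median log2 fold change of 0.07, and against 13.2% lower and 18.3% higher of all genes without miR-122 regions, with a median of 0.11. Of 39 other nuclear receptors 20 were tested, 3 were lower and 5 higher (median -0.06), shares near those of all genes. Rxrb, which encodes RXRbeta, was lower (8.5 ± 3.8 CPM in KO, 24.6 ± 2.3 CPM in WT, log2 -1.53, adjusted p = 0.00203) and had no miR-122 match. Nr3c2, the mineralocorticoid receptor, was lower too (log2 -1.83, adjusted p = 0.00033), whereas the retinoic acid receptor Rarb (log2 1.58, adjusted p = 0.00598) and the orphan receptor Esrrg (log2 1.74, adjusted p = 0.0254) were higher. Esrrg was highest in KO replicate 4 at 39.2 CPM, the library with the highest neuron markers.

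Of 21 coregulators 20 were tested, 5 were lower and 3 higher (median -0.05), again near the 23.3% lower and 21.9% higher of all genes. Gps2, a corepressor subunit, had 1 region, with a miR-122 match, and fell to 0.23 ± 0.47 CPM in KO, against 11.7 ± 2.9 CPM in WT (log2 -4.80, adjusted p = 0.000193). Ep300, a histone acetyltransferase, was lower (log2 -1.18, adjusted p = 0.000308), but without its 6 miR-122 regions its value was -0.21 (adjusted p = 0.472). The deacetylase Sirt1, with no miR-122 match, was higher with an adjusted p of 0.0496 (log2 1.11). Its reads are the same in the table without miR-122 regions, which was scaled and adjusted separately (log2 0.87, adjusted p = 0.137). Without miR-122 regions 0 of the 20 coregulators were lower and 1 was higher.

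Genes known as targets of these receptors were then taken receptor by receptor. The lists do not separate genes that a receptor raises from genes that it lowers. Their counts therefore give no direction of receptor activity. For PPARalpha 11 of 13 tested targets were lower and 0 higher, with a median log2 fold change of -1.29, where 23.3% of all genes were lower and 21.9% higher. Without miR-122 regions 8 of 14 were lower and 0 higher (median -1.08), where 13.2% of all genes were lower and 18.3% higher. Cyp4a10, a fatty acid hydroxylase, fell to 73.2 ± 33.6 CPM in KO, against 1062 ± 783 CPM in WT (log2 -3.05, adjusted p = 0.000763). Fabp1, the liver fatty acid carrier, fell to 182 ± 52.9 CPM in KO, against 1214 ± 411 CPM in WT (log2 -2.55, adjusted p = 3.18e-06) with no miR-122 match. Within WT, Cyp4a10 had 1381, 2187 and 1061 CPM in females and 496 and 187 CPM in males. Fabp1 had 1708, 1505 and 1197 CPM in WT females and 989 and 670 CPM in WT males. The groups differ in sex, which the folds take into account and the means do not. For HNF4alpha and LRH-1, 8 of 12 targets were lower and 1 higher (median -1.19), against the same shares of all genes, and 6 of 10 were lower and 1 higher without miR-122 regions (median -0.82). Cyp8b1, the sterol 12-hydroxylase of bile acid synthesis, had a log2 fold change of -4.76 (adjusted p = 5.16e-07), and of -2.15 (adjusted p = 9.55e-05) without its 3 miR-122 regions. Ttr, a thyroid hormone carrier and also on the hepatocyte marker list, was higher (log2 1.18, adjusted p = 0.000851).

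Counts for the target lists of the other receptors likewise stand against 23.3% lower and 21.9% higher of all genes. For FXR 3 of 6 tested targets were lower and 0 higher (median -0.56), with the same counts without miR-122 regions, where 13.2% of all genes were lower. The bile acid importer Slc10a1 had a log2 fold change of -1.42 (adjusted p = 0.000671) and the bile salt export pump Abcb11 of -1.09 (adjusted p = 0.000366). For PXR and CAR 5 of 12 were lower and 2 higher (median -0.37), and 3 of 12 lower and 1 higher without miR-122 regions. Cyp3a13 had the lowest value (log2 -2.14, adjusted p = 8.13e-06), which was -0.89 (adjusted p = 0.00541) without its 2 miR-122 regions. The transporter Abcc3 followed (log2 -1.64, adjusted p = 4.23e-05), but without its 2 miR-122 regions its value was -0.46 (adjusted p = 0.213). The glutathione transferases Gstm1 (log2 0.84, adjusted p = 0.000612) and Gsta4 (log2 1.29, adjusted p = 0.0471) were higher, and neither has a miR-122 match. With unchanged reads, Gsta4 did not pass in the separately scaled table without miR-122 regions (log2 1.05, adjusted p = 0.120). For LXR 5 of 11 were lower and 1 higher (median -0.03), and 5 of 11 lower and 0 higher without miR-122 regions. The fatty acid desaturase Scd1 (log2 -3.04, adjusted p = 5.13e-06) and fatty acid synthase Fasn (log2 -2.43, adjusted p = 3.85e-06) were lower. Lipoprotein lipase Lpl, with no miR-122 match, was higher (log2 0.97, adjusted p = 0.0143). With unchanged reads it did not pass in the separately scaled table without miR-122 regions (log2 0.73, adjusted p = 0.0662). AGO-bound reads follow both the amount of an RNA and its occupancy, which were not separated here. Hepatocyte markers were lower and neuron markers higher in the same libraries, as given above.

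Among 8843 genes, that with the most similar profile to each receptor over the 9 libraries was found by Pearson's r of log2(CPM + 1). It was Il22ra1 for Hnf4a (r = 0.985), Usp18 for Ppara (0.979), Zfp444 for Rxra (0.963), Opa3 for Nr5a2 (0.963), Numb for Nr1h4 (0.962), Apeh for Nr0b2 (0.952), Ptprb for Nr1i2 (0.941) and Mtr for Nr1i3 (0.921). After the mean of each genotype was taken off, Usp18 was again nearest to Ppara (0.975) and Opa3 to Nr5a2 (0.973), while the other 6 receptors had a different neighbour. The libraries share depth and cell makeup, and the best of so many genes is high by selection, so these are descriptions.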

How the data were processed

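AGO CLIP-seq reads of 9 livers were analysed. Per the submitters' processing notes, Bowtie2 and mm10 were used. The counter, the strand rule and how duplicates were treated are not stated there or in the labels. The deposited counts, per the file headers, are raw reads per region and library. The authors' deposited log2 value (WT over KO) and the deposited phyloP score were used for description only. The table had 143524 rows, reduced to 92645 unique regions. 11.0% of reads lay in regions without a gene and stayed out of gene sums.

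Regions and gene sums were fitted over the whole table with edgeR 4.0.16 (R 4.3.3; TMM, filterByExpr, glmQLFit, glmQLFTest, terms genotype and sex), adjusted by Benjamini-Hochberg at 0.05. Every adjusted p of a single gene or region is from edgeR unless another test is named, and an SE is derived from that test's statistic. Region share within a gene used diffSpliceDGE. The miR-122 share of a gene's reads was tested by exact permutation, adjusted over all genes testable this way, and under the alternatives over the receptors alone. Alternatives were DESeq2 1.42.0, other scalings, filters and covariates, leaving out libraries, and single annotation classes. Python 3.11.15 with pandas 2.3.3 and numpy 2.4.6 made tables, and matplotlib 3.10.9 the figures.

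A floor of 3 counts is 2.56 to 6.73 CPM in a library. The libraries were amplified, so a floor or interval covers counting error alone. Tested on simulated data of 8900 genes, 92% of genes at a true log2 fold of -2 and 18% at -1 were recovered, with 2 false calls. For region share within a gene, 46.3% at -2 and 30.2% at 2 were recovered, with 17 false calls. The simulation changed few genes or regions, all well counted, at a fixed dispersion. It held no broad shift between the groups, so its false calls do not carry over to the real data. Replicate numbers did not pair the samples: deviations of same-numbered KO and WT libraries correlated at -0.08 to 0.02.

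The members, the gene lists and the rule for named items (all members, every region with a miR-122 match or called, each member's largest region, and the 2 lowest and 2 highest called genes of a list) were chosen with earlier results of these data known. Some list genes that this rule names are not reported here.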

Additional observations from a re-analysis of the deposited data

Results flagged for a closer look

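4 values stood apart within their group by Dixon's test, among 88 groups checked; chance flags about 1 in 20 groups. Without miR-122 regions, Ppara in WT replicate 5 had 300.7 CPM, below the other WT libraries at 375 to 397 CPM. In the miR-122 regions of Nr1h4, KO replicate 2 had 0.975 CPM and the other KO libraries 0. That is 1 read of 52, or 1.92% of the gene's reads in that library (95% Wilson interval 0.34 to 10.1%), against 0 in the other KO libraries. In the miR-122 region of Nr0b2, WT replicate 2 had 15.7 CPM and the other WT libraries 3.5 to 7.0 CPM.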

How the results depend on the processing

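Of counts of called receptors and regions, 160 values under alternatives were within 1.5 times of the reported count and 20 were not. With miR-122 regions left out, the count of lower receptors, reported as 0, was 1 without the sex term, 1 with the replicate block (the same numbers do not pair these mice), 1 in 3′ UTR regions alone and 2 in coding regions alone, and 0 to 2 when 1 library was left out (1 without KO replicate 2 or WT replicate 2, 2 without KO replicate 4). Over all regions, lower receptors, reported as 3, numbered 1 in coding regions alone, and higher ones, reported as 0, numbered 1 in intron regions alone. Without the filter on low counts, 20 regions were lower, 12 of them with a miR-122 match, and within-gene shares gave 12 lower, 10 of them with a match. Higher regions, reported as 3, numbered 7 with upper quartile scaling and 1 with scaling from regions without a miR-122 match. Leaving out 1 library gave 7 to 14 lower regions and 1 to 4 higher ones. It was WT replicate 3 whose removal gave 7, and removal of WT replicate 1, 3, 4 or 5 gave 1 higher region, where fewer WT reads were left. Lower receptors over all regions numbered 2 to 4 with 1 library left out.

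Of values of single genes, regions and shares, 544 kept direction and side of the threshold, 37 no longer passed, 13 newly passed and 31 changed sign. Sign changes over all regions were as follows, as log2 fold changes. Nr1i3 had -0.19 with scaling from regions without a miR-122 match, -0.23 without the sex term and -0.41 with the replicate block, and ran from -0.24 to 0.54 with 1 library left out. Nr1i2 had 0.010 with DESeq2 size factors, 0.086 with upper quartile scaling and 0.23 in males, and ran from -0.46 to 0.29. Rxra had 1.18 in introns. In coding regions Hnf4a had 0.18, Ppara 0.056 and Nr1h4 0.42, and in 3′ UTR regions Nr5a2 had 0.41. With miR-122 regions left out, Rxra had 0.27 in males and 0.65 in introns, and ran from -0.27 to 0.35 with 1 library left out. Nr1i3 had 0.22 in males and ran from -0.54 to 0.33. Nr1i2 had -0.17 with the replicate block and -0.43 in 3′ UTR regions, and ran from -0.21 to 0.68. Nr5a2 had 0.21 in 3′ UTR regions and Nr1h4 0.11 in coding regions. Coding and intron sums were added after the data were seen. Except where fewer reads or libraries entered, the cause was not tested. At this depth 43 of 167 regions could be tested singly.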
